A study of Mus musculus with 2 samples.

Results

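The prostaglandin genes described here are 10 of the 32285 genes counted in the 2 single-cell libraries, taken by their symbols, and each symbol matched 1 row. They are Pla2g4a, which releases the substrate, the cyclooxygenases Ptgs1 and Ptgs2, the synthases Ptges, Ptges2, Ptges3 and Hpgds, the degrading enzyme Hpgd, and the PGE2 receptor genes Ptger2 and Ptger4. The 2 libraries are from orthotopic tumors grown from KPC cells, a mouse line of pancreatic cancer that was implanted in the pancreas of C57BL/6 mice. The mice were males aged between 5 and 7 weeks when obtained. The iIRE tumor had undergone insufficient irreversible electroporation, in which short high-voltage pulses between needles kill part of the tumor, and the residual tumor was taken on day 3. In the control group the needles were inserted without pulses according to the study's methods, while its results call these tumors untreated. Both groups carried the same cell line, which is a single line, and the number of mice per library is not given in the sources used here. Each group is a single library, so how tumors of one group vary was not measured and nothing was tested between the groups. The values describe these 2 libraries, and each interval covers counting error only.

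Prostaglandins are lipid mediators made from arachidonic acid, which cytosolic phospholipase A2 (Pla2g4a) cuts from membrane lipids. The cyclooxygenases turn it into PGH2, Ptgs1 as the form that many cells carry at rest and Ptgs2 (COX-2) as the form induced by cytokines and injury, and terminal synthases then make PGE2, PGD2, prostacyclin or thromboxane. In tumors, PGE2 acts on myeloid and T cells through the cAMP-coupled receptors EP2 (Ptger2) and EP4 (Ptger4), and Hpgd ends the signal by oxidizing it.

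Ptgs2 and Pla2g4a lie on chromosome 1 of GRCm38 (mm10), 139 kb apart, with Ptgs2 at chr1:150100031-150108227 on the + strand and Pla2g4a at chr1:149829618-149961290 on the - strand. Ptgs1 (chr2:36230426-36252272), Ptges (chr2:30889471-30929863) and Ptges2 (chr2:32395896-32405772) lie on chromosome 2, and the other members lie on chromosomes 6, 8, 10, 14 and 15. Promoter sequence from RefSeq, on GRCm38.p6, was at hand for 10 of the 10 members. The windows of the 3 members that were higher after iIRE in fibroblasts are printed, from 250 bases before to 30 bases after the annotated start, since they differ in the motifs they hold. They cover chr1:150099781-150100060 (+), chr2:36230176-36230455 (+) and chr2:30903268-30903547 (-), and capitals mark matches, on either strand, to motifs of 6 factors or core promoter elements. These were CGTCA, the core of a cAMP response element, then the E-box, spelled CACGTG, the TATA box, spelled TATAAA, the GC box, spelled GGGCGG, the AP-1 site, spelled TGANTCA, and the C/EBP motif, spelled TTNNGCAA.
Ptgs2: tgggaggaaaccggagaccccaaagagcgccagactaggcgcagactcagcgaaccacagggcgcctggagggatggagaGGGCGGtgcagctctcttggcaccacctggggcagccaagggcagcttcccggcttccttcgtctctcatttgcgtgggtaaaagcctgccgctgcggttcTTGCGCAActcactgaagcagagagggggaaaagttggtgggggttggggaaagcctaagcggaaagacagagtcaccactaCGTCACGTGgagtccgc
Ptgs1: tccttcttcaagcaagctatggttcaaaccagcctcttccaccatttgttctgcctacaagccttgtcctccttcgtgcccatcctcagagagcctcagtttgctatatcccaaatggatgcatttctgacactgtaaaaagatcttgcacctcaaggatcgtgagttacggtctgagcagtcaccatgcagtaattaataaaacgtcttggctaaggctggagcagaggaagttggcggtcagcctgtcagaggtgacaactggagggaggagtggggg
Ptges: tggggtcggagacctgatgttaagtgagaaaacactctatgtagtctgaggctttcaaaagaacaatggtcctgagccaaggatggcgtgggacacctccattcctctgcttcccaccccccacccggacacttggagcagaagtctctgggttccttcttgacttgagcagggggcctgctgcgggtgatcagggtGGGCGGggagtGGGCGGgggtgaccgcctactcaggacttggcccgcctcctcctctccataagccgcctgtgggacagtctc
The Ptgs2 window held 4 of these motifs. They were a GC box at -170, a C/EBP motif at -69, and the cAMP response core at 13, which shares 2 bases with the E-box that follows at 16, counted from the start base as 0. The Ptges window held 2 GC boxes, the first at -53, and the Ptgs1 window held no match. The Ptges window starts from the RefSeq start, which lies inside the longer gene span given above. Of 32851 promoter windows of 300 bases, 20.8% held the cAMP response core, 7.15% the E-box, 13.6% the TATA box, 35.7% the GC box, 7.81% the AP-1 site and 10.8% the C/EBP motif. A match describes letters only, and no match says nothing about the factor.

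Cells were placed in classes by the UMIs (unique molecular identifiers, each counting 1 captured transcript) of marker genes, and levels are UMIs of a gene scaled to 1000000 UMIs of the class (CPM). The control library held 15274 analyzed cells and the iIRE library 15991, with a median of 7491 and 6065 UMIs per cell. There were 121 and 131 neutrophils (control and iIRE, in this order throughout), 430 and 415 Ccr2-positive myeloid cells, 555 and 582 C1q macrophages, 28 and 54 fibroblasts, and 10680 and 11566 tumor cells. Added after the data were seen were 80 and 42 dendritic cells, 76 and 27 T/NK cells, 93 and 110 osteoclast-like cells, 26 and 20 endothelial cells, and 1772 and 1580 collagen-rich cells with Cdkn2a transcripts. The 2 libraries shared 458 barcode sequences, and these were kept as separate cells. Every marker of its own list was detected in each named class, but the labels are not exclusive, because 316 and 267 of the Ccr2-positive cells also reached the C1q gate and their leading genes were Cd74, Cd14 and H2-Aa. Fibroblasts were host cells with Y-linked transcripts and no Cdkn2a UMI. Neutrophils were shallow, with a median of 1373 and 1326 UMIs per cell.

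The highest levels of the prostaglandin genes lay in different cell classes, although some classes held several of them. In control, C1q macrophages had Pla2g4a at 51.4, Ptgs1 at 69.2, Ptgs2 at 150, Hpgds at 98.4 and Ptger4 at 81.4 CPM. Whether single cells carried these genes together was not tested. Ptgs2 stood highest in neutrophils, Ptges in fibroblasts, Hpgds in C1q macrophages, and Ptger4 in dendritic cells, Ccr2-positive cells and C1q macrophages. Pla2g4a and Ptges3 were spread over most classes. No class carried high levels of Ptgs2 and Ptges together except the fibroblasts, and neutrophils, which had the highest Ptgs2, had 0 UMIs of Ptges. After iIRE, Ptgs2 was higher in neutrophils, Ccr2-positive myeloid cells, fibroblasts and dendritic cells. It was about level in C1q macrophages and tumor cells, and lower in the collagen-rich Cdkn2a-positive cells. In neutrophils the difference fell short of 1.2-fold under some alternative settings.

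**Figure D1:**
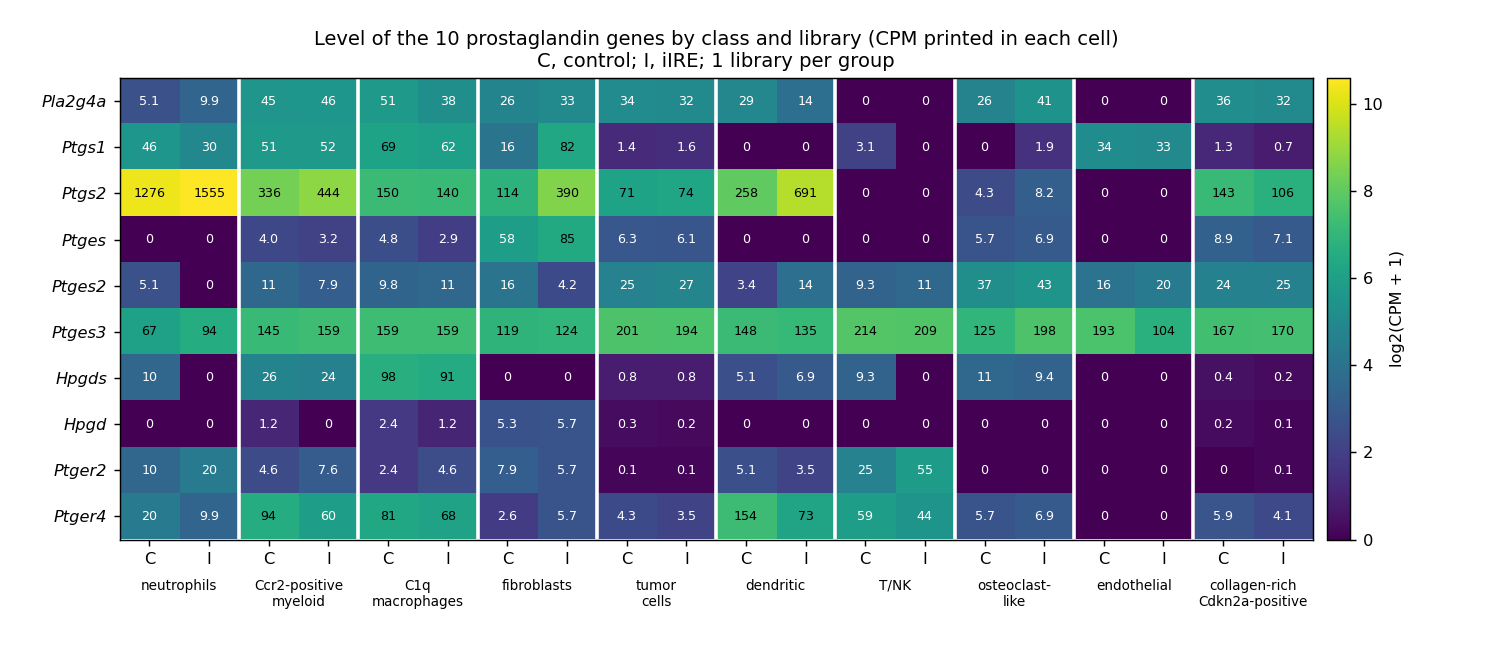
Level of each of the 10 genes (rows) in 10 classes (columns), with C for control and I for iIRE, 1 library each. Color is log2(CPM + 1) and the printed value is CPM. A reader should see Ptgs2 brightest in neutrophils (1276 and 1555 CPM), Ptges at most 8.92 CPM outside fibroblasts, and Hpgds highest in C1q macrophages.

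Among the members with at least 50 UMIs over both libraries of a class, a difference was called from 1.2-fold after 10 CPM was added to both levels. In neutrophils 1 member reached the UMI minimum and it was higher, beside 25.9% of 1086 genes called higher and 24.7% called lower. In Ccr2-positive myeloid cells 1 of 7 was higher and 1 lower, beside 12.3% and 7.47% of 8101 genes. In C1q macrophages 0 of 7 were higher and 1 lower, beside 10.5% and 6.50% of 8655 genes. In fibroblasts 3 of 4 were higher and 0 lower, beside 27.6% and 23.7% of 3301 genes. Of these, Ptgs1 had 6 and 58 UMIs, so it reached the minimum through the library where it was high. The fibroblast count, and the fibroblast median given below, therefore rest in part on this filter. In tumor cells 0 of 9 were called, beside 0.859% of 15250 genes higher and 0.643% lower. Among the added classes, 1 of 3 was higher and 1 lower in dendritic cells (beside 15.8% and 29.7% of genes), 2 of 3 were higher in osteoclast-like cells (22.9% and 14.8%), 0 of 1 was called in T/NK cells (23.0% and 25.7%), 1 of 1 was lower in endothelial cells (21.1% and 26.9%), and 1 of 7 was lower in collagen-rich Cdkn2a-positive cells (1.77% and 1.60%). In neutrophils, fibroblasts, dendritic, T/NK, osteoclast-like and endothelial cells genes were called often in both directions, so a call there carries little weight by itself. The median log2 ratio of the members was 0.02 in Ccr2-positive cells against 0.03 for all genes tested, -0.10 against 0.03 in C1q macrophages, 1.08 against 0.05 in fibroblasts, and -0.01 against 0.01 in tumor cells. No single direction held across classes.

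**Figure D2:**
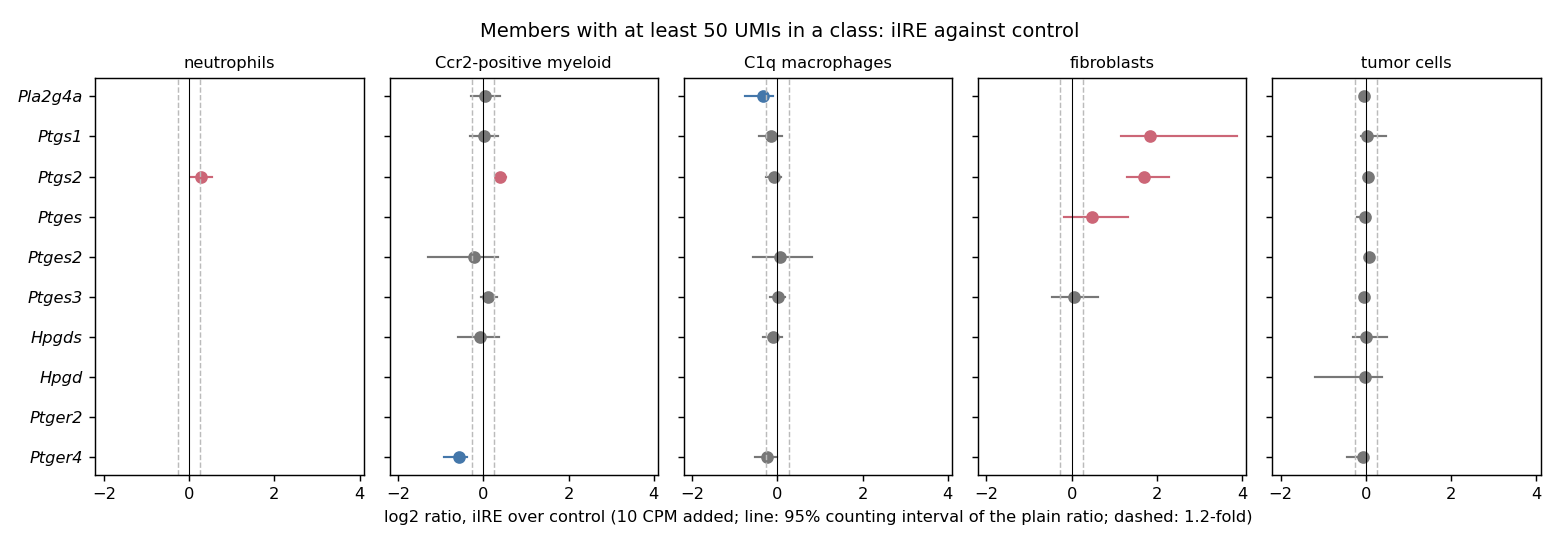
Log2 ratio of iIRE over control (horizontal axis) for the members with at least 50 UMIs in each of the 5 main classes, with 10 CPM added for the points, and lines for the 95% counting interval of the plain ratio. Dashed lines mark 1.2-fold. Red points were called higher, blue points lower and gray points neither, and a reader should see Ptgs2 to the right in neutrophils (0.28), Ccr2-positive cells (0.40) and fibroblasts (1.69) and at 0.05 in tumor cells.

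Pla2g4a, the first enzyme of the path, was highest in C1q macrophages in control and in Ccr2-positive cells after iIRE. Neither interval lay apart from that of the next class. The next classes were Ccr2-positive cells in control (37.8 to 52.6 CPM) and osteoclast-like cells after iIRE (32.1 to 52.7). In control the interval of C1q macrophages (44.5 to 59.2 CPM) lay above that of tumor cells (32.7 to 34.6). The Pla2g4a level was 51.4 and 38.3 CPM in C1q macrophages, 44.8 and 46.4 in Ccr2-positive cells, 26.5 and 32.5 in fibroblasts, and 33.7 and 32.4 in tumor cells. In neutrophils it had 1 and 2 UMIs, with intervals that reached 28.5 and 35.7 CPM. It had 0 UMIs in T/NK cells, which allows up to 9.32 and 33.0 CPM. Endothelial cells also had 0 UMIs of Pla2g4a, which allows up to 9.34 and 19.6 CPM. In C1q macrophages Pla2g4a was lower after iIRE, with 194 and 133 UMIs and a log2 ratio of -0.35 (interval of the plain ratio -0.76 to -0.10). In osteoclast-like cells it was higher, from 25.8 to 41.4 CPM, with a log2 ratio of 0.52 (0.08 to 1.31). The summed markers of that class were 33481 and 22921 CPM and the C1q macrophage markers in it 255 and 465 CPM, and their part in the result was not tested. Tumor cells held most of its UMIs, 72.9% and 74.4% of those in the library.

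Ptgs1, the constitutive cyclooxygenase, was highest in C1q macrophages in control. After iIRE Ptgs1 was highest in fibroblasts, whose interval (62.2 to 106 CPM) overlapped with that of C1q macrophages (53.6 to 70.4). In control it was 69.2 CPM in C1q macrophages, 51.2 in Ccr2-positive cells, 46.1 in neutrophils and 34.2 in endothelial cells, and the interval of C1q macrophages (61.1 to 78.1) lay apart from that of Ccr2-positive cells (43.7 to 59.5). The levels of Ccr2-positive cells, neutrophils and endothelial cells did not differ beyond their intervals. Tumor cells had 1.41 and 1.60 CPM, and dendritic cells had 0 UMIs. In fibroblasts Ptgs1 had 6 UMIs in control and 58 after iIRE, which is 15.9 and 82.0 CPM. There it was higher after iIRE, with a log2 ratio of 1.83 (1.16 to 3.87), although 1 iIRE cell held 20 of the 58 UMIs, and without the cell with the most UMIs in each library the ratio was 1.63. It was 0.93 with a mitochondrial limit of 10% and 1.02 without removal by doublet score. In C1q macrophages (61.6 CPM after iIRE) and Ccr2-positive cells (51.8) Ptgs1 was within 1.2-fold. Without the cell with the most UMIs in each class, the iIRE level was 55.7 CPM in fibroblasts and 60.6 in C1q macrophages, so the order turned.

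Ptgs2 was the member with the widest range over classes. In control it was 1276 CPM in neutrophils (interval 1122 to 1444), 336 in Ccr2-positive cells (316 to 356), 258 in dendritic cells (218 to 302), 150 in C1q macrophages (137 to 162), 143 in collagen-rich Cdkn2a-positive cells (139 to 148), 114 in fibroblasts (82.4 to 153) and 71.0 in tumor cells (69.6 to 72.4). The intervals of C1q macrophages, collagen-rich cells and fibroblasts overlapped, while neutrophils stood 3.80-fold over the next class. Osteoclast-like cells, also of myeloid type, had 6 and 13 UMIs. T/NK cells and endothelial cells had 0 UMIs in both libraries, which allows up to 9.32 and 33.0 CPM in T/NK cells and up to 9.34 and 19.6 CPM in endothelial cells. The median depth was 3294.5 and 2740 UMIs per cell in T/NK cells and 9532.5 and 5140.5 in endothelial cells.

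After iIRE the order changed below the neutrophils. Neutrophils had 1555 CPM (1388 to 1736), dendritic cells 691 (599 to 794), Ccr2-positive cells 444 (420 to 470) and fibroblasts 390 (345 to 439). The last of these overlapped with the Ccr2-positive cells, and both stood over the C1q macrophages at 140 (128 to 153). Collagen-rich Cdkn2a-positive cells had 106 CPM (102 to 111) and tumor cells 74.0 (72.5 to 75.5).

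**Figure D3:**
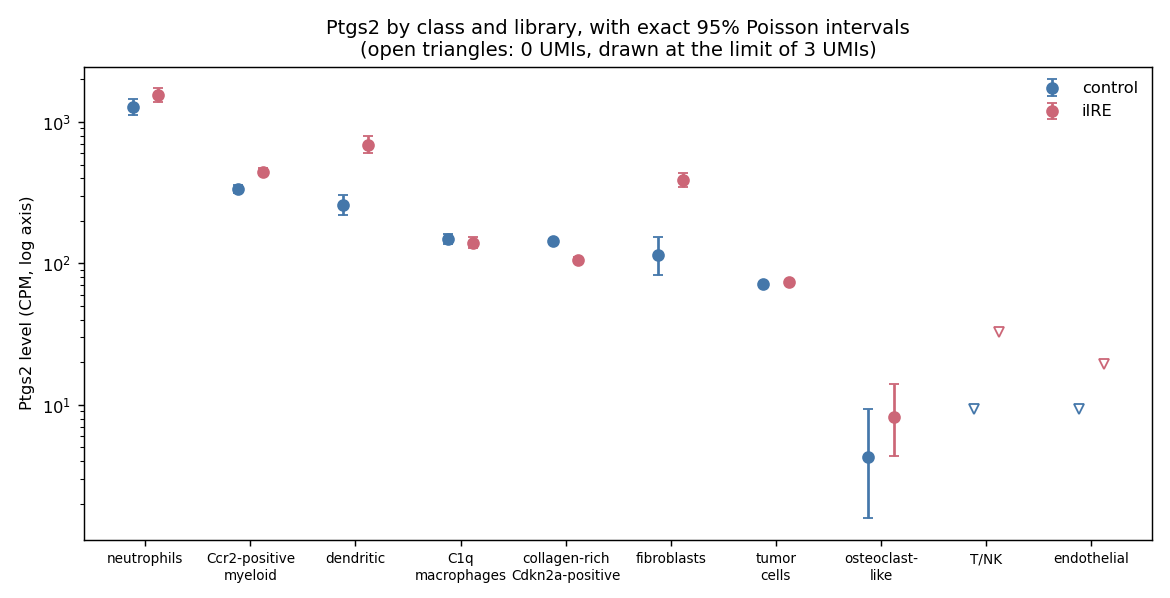
Ptgs2 level (CPM, log axis) in 10 classes ordered by the control level, with exact 95% Poisson intervals, blue for control and red for iIRE. Open triangles stand for 0 UMIs at the limit of 3 UMIs, and a reader should see the red point above the blue one in dendritic cells (691 and 258 CPM) and fibroblasts (390 and 114 CPM) and below it in collagen-rich Cdkn2a-positive cells (106 and 143 CPM).

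In neutrophils Ptgs2 had 249 and 315 UMIs, and 62.8% and 67.2% of the cells had at least 1. It was called higher, with a log2 ratio of 0.28 (0.04 to 0.53). The call was lost with TMM scaling, where the ratio was 0.21, and without the cell with the most UMIs in each library, where it was 0.25. Of the list of inducers and mRNA decay regulators of Ptgs2, 8 genes reached the UMI minimum in neutrophils, and 6 were higher and 1 lower, beside 25.9% and 24.7% of all genes, with a median log2 ratio of 0.43 against 0.00 for all genes tested. Il1b, the cytokine IL-1 beta, was 12342 and 14993 CPM with a log2 ratio of 0.28, Tnf was 425 and 799 (0.90), Zfp36, whose protein speeds the decay of such mRNAs, was 4165 and 5606 (0.43), and Cebpb was lower, 9524 and 7590 (-0.33). The antisense genes Ptgs2os and Ptgs2os2 had 2 and 3 and 43 and 41 UMIs in this class, far fewer than Ptgs2. Markers of other cells moved in this class. Ly6c2 had 32 and 62 UMIs, the summed dendritic markers were 343 and 4.94 CPM, with Ccr7 at 23 and 0 UMIs, the T/NK markers were 97.3 and 0 CPM, and the acinar enzymes were 133 and 424 CPM. Among the class's own markers Retnlg was 1901 and 3963 CPM, and the part of these genes in the result was not tested.

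In Ccr2-positive myeloid cells Ptgs2 had 1102 and 1235 UMIs and was higher, with a log2 ratio of 0.40 (0.29 to 0.52). Cells with at least 1 UMI were 42.8% and 51.6%, and after thinning every cell to 1000 UMIs they were 20.5% and 26.0%, so the share moved with the level. The difference was present in cells at or above the C1q gate, from 312 to 394 CPM (log2 ratio 0.32), and in those below it, from 404 to 531 CPM (0.39). It was larger in cells without a Ly6c2 UMI, 333 and 472 CPM (0.49, interval 0.37 to 0.63), than in those with one, 353 and 372 CPM (0.07, -0.23 to 0.38). Cells with a Ly6c2 UMI, the mark of inflammatory monocytes, were 65 of 430 and 132 of 415, and H2-Aa fell from 3690 to 1409 CPM in the class, and their part in the result was not tested. Of 9 inducers and regulators tested, 1 was higher (Tnfrsf1a) and 4 were lower, beside 12.3% and 7.47% of all genes, and Il1b was 2672 and 2398 CPM (log2 ratio -0.16).

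In C1q macrophages Ptgs2 had 564 and 486 UMIs, in 24.3% and 24.1% of the cells. The level was within 1.2-fold, with a log2 ratio of -0.09 (-0.27 to 0.08). The sign turned under the stricter gate, where the ratio was 0.16. Of 9 inducers and regulators, 0 were higher and 4 were lower, beside 10.5% and 6.50% of all genes, among them Il1a at 313 and 163 CPM (log2 ratio -0.90), Zfp36 at 1768 and 1338 (-0.40) and Dusp1, a phosphatase that limits MAP kinases, at 1823 and 1241 (-0.55). Zfp36 and Dusp1 were also lower in Ccr2-positive cells, fibroblasts and osteoclast-like cells.

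In fibroblasts Ptgs2 had 43 UMIs in 9 of 28 control cells and 276 UMIs in 30 of 54 iIRE cells. It was higher, with a log2 ratio of 1.69 (1.31 to 2.28), and the ratio was 1.76 without the cell with the most UMIs in each library, which held 12 of the 43 and 58 of the 276 UMIs. After thinning to 1000 UMIs, cells with a UMI were 7.14% and 24.1%. The fibroblasts of the libraries were not alike in other genes. Pdgfra and Pdgfrb, receptors of fibroblasts, were 426 and 188 CPM and 371 and 144 CPM, Plac8 was 55.6 and 351 CPM and the smooth muscle actin Acta2 154 and 1054 CPM. The summed level of the 5 pericyte markers was 98.0 and 481 CPM, of which Rgs5 was 0 and 257 CPM. The mesothelial genes Upk3b, Lrrn4 and Msln had 19 and 5, 16 and 4, and 5 and 4 UMIs, and the neutrophil gene S100a9 had 34 and 0 UMIs. The Rgs5 UMIs lay in 2 iIRE cells, and without these Ptgs2 was 114 and 403 CPM (log2 ratio 1.74) and Ptgs1 15.9 and 84.6 CPM (1.87). Among cells with a Pdgfra UMI, 25 and 35, Ptgs2 was 114 and 301 CPM (log2 ratio 1.32, interval 0.88 to 1.94). The part of the other genes in the result was not tested. Of 7 inducers and regulators tested in fibroblasts, 2 were higher (Il1r1 and Nfkb1) and 3 lower, beside 27.6% and 23.7% of all genes, with a median log2 ratio of -0.26 against 0.05.

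In tumor cells Ptgs2 had 10004 and 9303 UMIs, which is 58.0% and 61.3% of all Ptgs2 UMIs of the analyzed cells, although the level per cell was low. Cells with a UMI were 41.6% and 36.7%, and 8.95% and 8.08% after thinning to 1000 UMIs. The log2 ratio was 0.05 (0.02 to 0.10), within 1.2-fold. In tumor cells S100a8 was at 0.0595% and 0.0293% of its neutrophil level and Ptgs2 at 5.57% and 4.76%. The part of RNA from other cells in the tumor cell level was not tested.

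The level in tumor cells depended on depth. Tumor cells of both libraries were ranked by UMIs per cell and cut into 4 groups of like size. In the group with the fewest UMIs Ptgs2 was 132 and 103 CPM, beside an Il1b level of 178 and 192 CPM and a C1qa level of 116 and 109 CPM. In the group with the most UMIs Ptgs2 was 49.1 and 58.8 CPM, while Il1b was 1.42 and 1.86 CPM and C1qa 1.84 and 1.61 CPM. The log2 ratio was -0.34, -0.23, -0.25 and 0.22 from the lowest to the highest group, so the sign of the pooled ratio was that of the deepest cells.

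**Figure D4:**
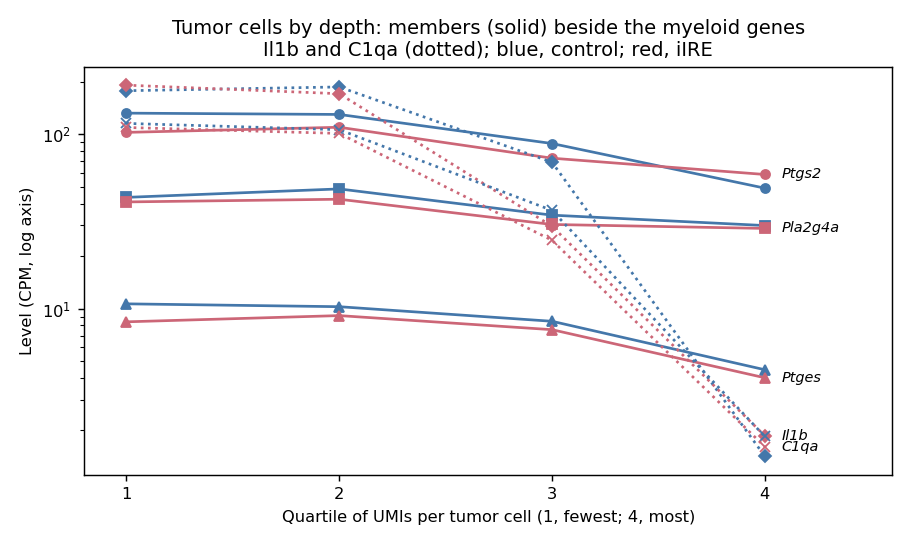
Level (CPM, log axis) of Ptgs2, Pla2g4a and Ptges (solid lines) and of the myeloid genes Il1b and C1qa (dotted lines) in 4 groups of tumor cells ordered by UMIs per cell, blue for control and red for iIRE. A reader should see Il1b fall from 178 to 1.42 CPM in control while Ptgs2 went from 132 to 49.1 CPM.

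In the collagen-rich Cdkn2a-positive cells Ptgs2 had 3835 and 2273 UMIs. It was lower after iIRE, with a log2 ratio of -0.39 (-0.50 to -0.35), and its level, 143 and 106 CPM, was over that of the tumor cells in both libraries. Among tumor cells cut into 4 groups by the summed collagen and other fibroblast marker transcripts, Ptgs2 was 51.2 and 53.3 CPM in the lowest group, 66.8 and 83.7 in the next, 109 and 102 in the one after it, and 91.5 and 89.4 in the highest. Il1b differed between these groups too, at 3.28 and 4.89 CPM in the lowest and 68.4 and 50.6 CPM in the highest, and its part in the result was not tested.

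In dendritic cells Ptgs2 had 152 and 200 UMIs and was higher, with a log2 ratio of 1.39 (1.11 to 1.74). It was present in 37.5% and 66.7% of the cells, and in 8.75% and 23.8% after thinning to 1000 UMIs. In cells with at least 2 UMIs of the maturation genes Ccr7, Ccl22 and Fscn1, 54 and 34 cells, the level was 336 and 774 CPM (log2 ratio 1.18). In the other 26 and 8 cells it was 127 and 362 CPM (1.44). Of 8 inducers and regulators tested, 4 were higher and 2 lower, beside 15.8% and 29.7% of all genes, with Il1b at 3091 and 4057 CPM (0.39). Within this class the summed C1q macrophage markers were 1539 and 290 CPM, and their part in the result was not tested.

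Ptges, the inducible microsomal PGE synthase, was a fibroblast gene in these tumors. It was 58.2 CPM (36.5 to 88.2) in control fibroblasts and 84.8 CPM (64.7 to 109) in iIRE fibroblasts, which was 6.53-fold and 11.9-fold over the next class. Elsewhere it was 6.29 and 6.05 CPM in tumor cells, 8.92 and 7.12 in collagen-rich Cdkn2a-positive cells, 4.77 and 2.88 in C1q macrophages and 3.96 and 3.24 in Ccr2-positive cells, and it had 0 UMIs in neutrophils, dendritic, T/NK and endothelial cells. In neutrophils, 0 UMIs allow up to 15.4 and 14.8 CPM, so a low level was not detectable at this depth. In fibroblasts Ptges was called higher after iIRE, with 22 and 60 UMIs and a log2 ratio of 0.47, and the interval of the plain ratio (-0.18 to 1.32) included 0. By number of cells, tumor cells still held 67.5% and 67.9% of the Ptges UMIs, and fibroblasts 1.68% and 5.35%.

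Ptges2 and Ptges3, the membrane-bound and the cytosolic PGE synthase, differed in their pattern over the classes. Ptges3, also known as the HSP90 cochaperone p23, was 201 and 194 CPM in tumor cells, 159 and 159 in C1q macrophages, 145 and 159 in Ccr2-positive cells and 119 and 124 in fibroblasts. It was within 1.2-fold in these classes, higher in osteoclast-like cells (125 and 198 CPM, log2 ratio 0.62, interval 0.39 to 0.94) and lower in endothelial cells (62 and 16 UMIs, log2 ratio -0.83, -1.78 to -0.08). In osteoclast-like cells the class's own markers also moved, as given above for Pla2g4a. Ptges2 was highest in osteoclast-like cells, 37.3 and 43.3 CPM, then in tumor cells, 25.3 and 27.2 CPM. It was between 7.92 and 11.0 CPM in Ccr2-positive cells and C1q macrophages. In both libraries the interval of osteoclast-like cells lay apart from that of tumor cells, and neutrophils had 1 and 0 UMIs. Ptges2 was within 1.2-fold where it had enough UMIs.

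Hpgds, the hematopoietic PGD synthase, marked C1q macrophages. Its level there was 98.4 CPM (88.6 to 109) and 90.9 CPM (81.2 to 102), 3.71-fold and 3.72-fold over the Ccr2-positive cells at 26.5 and 24.5 CPM. Within the Ccr2-positive cells it followed the C1q genes, with 35.4 and 38.2 CPM at or above the C1q gate and 0 and 1 UMIs below it. Fibroblasts and endothelial cells had 0 UMIs. Tumor cells had 0.774 and 0.827 CPM, which was 0.787% and 0.909% of the level in C1q macrophages, near the 0.511% and 0.650% found for C1qa. Hpgds was within 1.2-fold between libraries, with a log2 ratio of -0.10 (-0.33 to 0.11) in C1q macrophages.

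Hpgd, which oxidizes PGE2 to an inactive form, was nearly absent. The analyzed cells held 61 and 37 UMIs in all, of which 37 and 25 lay in tumor cells at 0.263 and 0.199 CPM. The highest level was that of fibroblasts, 5.29 and 5.65 CPM, from 2 and 4 UMIs.

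Ptger2, the EP2 receptor gene, had 68 and 80 UMIs in all. Its highest level was in T/NK cells, from 8 and 5 UMIs, at 24.9 CPM (10.7 to 49.0) and 54.9 CPM (17.8 to 128). Neutrophils had 2 and 4 UMIs. No class reached 50 UMIs, so no difference between the libraries was assessed.

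Ptger4, the EP4 receptor gene, was the more abundant of the EP2 and EP4 receptor genes. Its level was highest in dendritic cells, Ccr2-positive cells and C1q macrophages. Among other myeloid classes, Ptger4 was 20.5 and 9.87 CPM in neutrophils, from 4 and 2 UMIs, and 5.74 and 6.91 CPM in osteoclast-like cells. In control it was 154 CPM in dendritic cells (124 to 190), 93.8 in Ccr2-positive cells (83.6 to 105), 81.4 in C1q macrophages (72.5 to 91.0) and 59.0 in T/NK cells (35.5 to 92.2). After iIRE these classes had 72.6, 59.7, 67.6 and 43.9 CPM, each under its control level, the last from 4 UMIs. Tumor cells had 4.25 and 3.52 CPM, and fibroblasts 1 and 4 UMIs. Of all Ptger4 UMIs of the analyzed cells, tumor cells held 36.6% and 41.2%, C1q macrophages 18.8% and 21.9%, and Ccr2-positive cells 18.8% and 15.4%.

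In Ccr2-positive cells Ptger4 had 308 and 166 UMIs and was lower, with a log2 ratio of -0.57 (-0.93 to -0.37). It was lower in each of the subsets examined, with a log2 ratio of -1.16 in cells with a Ly6c2 UMI, -0.42 in those without and -0.36 at or above the C1q gate, and it went from 78.4 to 34.1 CPM below that gate. Cells with a UMI were 40.9% and 26.0%, and 8.37% and 5.06% after thinning to 1000 UMIs. In this class the summed dendritic markers were 107 and 57.2 CPM, 9 of 9 of them detected in both libraries, and H2-Aa was 3690 and 1409 CPM, and their part in the result was not tested. In C1q macrophages the log2 ratio was -0.24 (-0.52 to -0.02), short of 1.2-fold, and it passed 1.2-fold there with 1 CPM added. In dendritic cells Ptger4 had 91 and 21 UMIs (log2 ratio -0.99, -1.85 to -0.39). There the cells with maturation genes went from 187 to 56.2 CPM, while the others, with 22 and 8 UMIs, were at 100 and 138 CPM. Over the whole class, Ptgs2 was thus higher and Ptger4 lower in the same 2 classes, Ccr2-positive myeloid and dendritic cells. Their subsets differed. In Ccr2-positive cells Ptgs2 rose more in cells without a Ly6c2 UMI, while Ptger4 fell more in cells with one. In dendritic cells without the maturation genes Ptgs2 was higher after iIRE, and Ptger4 went from 100 to 138 CPM.

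**Figure D5:**
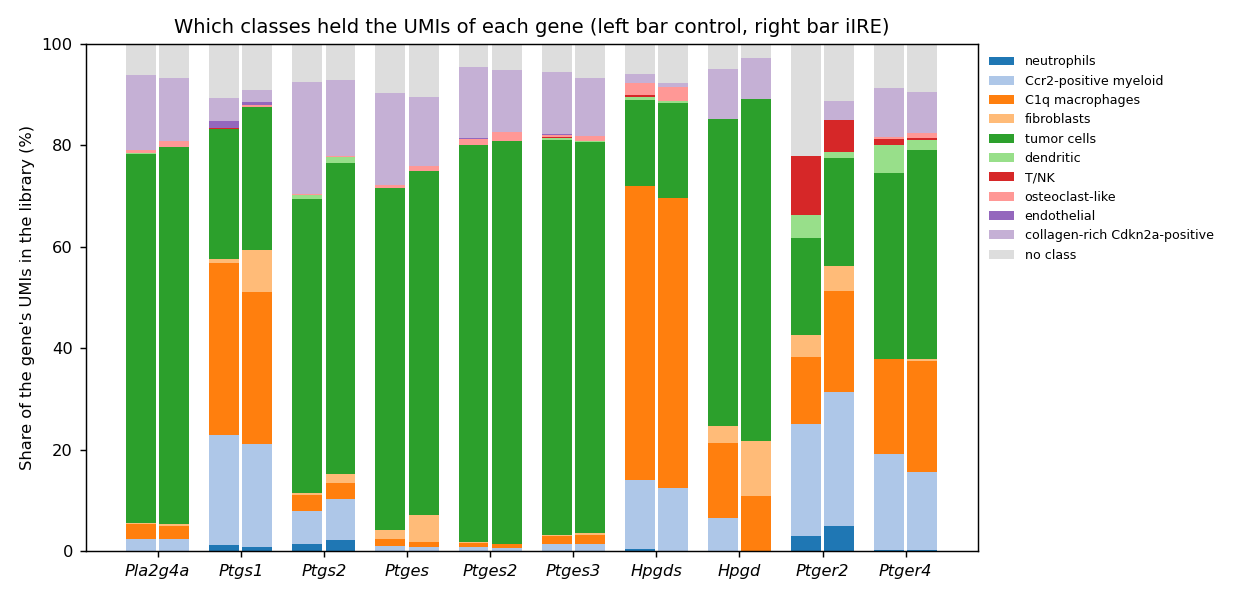
Share of each gene's UMIs in the analyzed cells of a library (vertical axis, percent) held by each class, with control in the left bar and iIRE in the right bar. A reader should see tumor cells holding most UMIs of Pla2g4a (72.9% and 74.4%) and Ptgs2 (58.0% and 61.3%), and C1q macrophages most of Hpgds (58.1% and 57.2%).

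Other enzymes of the path, from a list of 16 symbols of which 15 were in the files, had at least 1 call in 7 of the 10 classes. In Ccr2-positive cells 0 of 9 tested were higher and 2 lower, beside 12.3% and 7.47% of all genes, and in C1q macrophages 0 of 9 were higher and 2 lower, beside 10.5% and 6.50%. In tumor cells 0 of 14 were called, beside 0.859% of all genes higher and 0.643% lower. In the smaller classes Pla2g7, a secreted phospholipase that cleaves platelet-activating factor, was higher in neutrophils (log2 ratio 0.54) and lower in osteoclast-like cells (-0.60), Plaa was higher in osteoclast-like cells (0.46), and Akr1b3 was higher in endothelial cells (0.55, interval -0.28 to 1.46). Prxl2b, a prostamide and PGF synthase, was lower in Ccr2-positive cells, 75.5 and 41.7 CPM (log2 ratio -0.72). It was also lower in C1q macrophages, 119 and 93.8 CPM (-0.32). Tbxas1, the thromboxane synthase, was 143 and 135 CPM and 168 and 184 CPM in these classes and was not called, and in dendritic cells it was lower, from 48 to 12 UMIs (log2 ratio -0.83). In fibroblasts Ptgis, the prostacyclin synthase, was higher, from 384 to 547 CPM with a log2 ratio of 0.50 (0.23 to 0.80). Ptgis was 0.930 and 1.65 CPM in tumor cells.

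Of 9 other receptor and transporter genes, 1 reached the UMI minimum in Ccr2-positive cells and 0 in C1q macrophages. In Ccr2-positive cells the efflux pump gene Abcc4 was higher, with 32 and 43 UMIs and a log2 ratio of 0.37 (-0.03 to 1.37). In fibroblasts the EP3 receptor gene Ptger3 was 98.0 and 120 CPM (log2 ratio 0.27, -0.28 to 0.89), where Ptger2 and Ptger4 were each under 10 CPM. In endothelial cells the prostaglandin uptake transporter Slco2a1 was 146 and 170 CPM and was not called.

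The leukotriene branch, which uses the same substrate, was measured for comparison. In Ccr2-positive cells 2 of 6 tested were higher and 0 lower, beside 12.3% and 7.47% of all genes. They were Alox5ap and the leukotriene B4 receptor gene Ltb4r1. Alox5ap, which presents arachidonic acid to 5-lipoxygenase, was 841 and 1032 CPM (log2 ratio 0.29), and Ltb4r1 was 65.2 and 108 CPM (0.65). In C1q macrophages 0 of 6 were higher and 2 lower, beside 10.5% and 6.50% of all genes, with Alox15 going from 110 to 12 UMIs (log2 ratio -1.54).

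Genes that cAMP induces, which EP2 and EP4 signaling raises, gave no common direction in Ccr2-positive cells or C1q macrophages. In Ccr2-positive cells 0 of 11 were higher and 1 lower, beside 12.3% and 7.47% of all genes, with Nr4a1 at 666 and 667 CPM. In C1q macrophages 3 of 11 were higher and 2 lower, beside 10.5% and 6.50% of all genes. In fibroblasts 5 of 8 were higher and 0 lower, beside 27.6% and 23.7% of all genes, with a median log2 ratio of 0.32 against 0.05 for all genes, and Nr4a3 was 122 and 230 CPM (0.87). In tumor cells 2 of 11 were higher, Nr4a2 at 40.0 and 61.5 CPM (0.52) and Pde4d at 205 and 248 CPM (0.26), beside 0.859% of all genes called higher there. In tumor cells 0 of 10 inducers and regulators of Ptgs2 were called.

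The genes whose levels were most like those of a member were found by Pearson correlation of log2(CPM + 10) over the 20 profiles of 10 classes and 2 libraries, among 16100 genes. The profiles share libraries, so the values are descriptions. For Ptgs2 the nearest were Basp1 (0.94), Smim3 (0.93) and Emilin2 (0.92), and for Hpgds Gpr34 (0.94), Ms4a7 (0.94) and Nxpe5 (0.94). For Ptgs1 they were Man1c1 (0.89), Scamp1 (0.80) and Mtus1 (0.80). For Ptges they were Gm34655 (0.98), Thrb (0.97) and Gm5535 (0.96), and for Ptges2 the mitochondrial ribosomal genes Mrpl2 (0.90) and Mrps6 (0.89) with Dele1 (0.90). The closest genes of Ptges3 were Arl6ip4 (0.93), Rangap1 (0.92) and Ddx10 (0.92). For Hpgd and Ptger2 the likeness rests on few UMIs, with 2010310C07Rik (0.99), Serpinb2 (0.97) and Igf1 (0.96), and Gramd1c (0.93), Peli1 (0.91) and Agap2 (0.90).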

How the data were processed

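Single-cell libraries of 1 control and 1 iIRE sample were made with the 10x Chromium 5′ kit, version 2. The authors aligned reads to mm10 with Cell Ranger, which uses STAR, and deposited raw UMI counts, with both libraries in 1 matrix and the library given by the barcode ending. The file header names Cell Ranger 7.0.1 and the methods another version. Whether intronic reads were counted is not given in the sources used here. The members and gene lists were chosen with earlier results of these data known.

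Barcodes with at least 200 genes, 1000 UMIs, a log10 gene number at least 0.7 times the log10 UMI number, and at most 5% mitochondrial and 5% hemoglobin UMIs were kept. Of these, 2538 control and 2836 iIRE barcodes with the highest doublet scores, from simulated sums of cell pairs, were removed (0.8% per 1000 cells). The barcodes, 18538 and 19433, held 247105192 and 222153118 UMIs. Classes were gates on summed marker UMIs per 10000 UMIs of a cell, with thresholds set after the data were seen, and 1413 control and 1464 iIRE cells were in no class. The 5 further classes and all splits of a class were also chosen then.

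UMIs were summed per class and library. Log2 ratios used CPM with 10 CPM added, which pulls ratios of genes under about 10 CPM toward 0, and genes with at least 50 UMIs were called from 1.2-fold. Intervals at 95% are exact Poisson for CPM and exact conditional binomial for the plain ratio. They treat each UMI as independent, so variation among cells and mice is not in them. Where a class had 0 UMIs, the limit is 3 UMIs. All members were named in each class, and of each list the genes with the highest CPM, with others named after their values were seen. The genes nearest to Ptger4 and to Pla2g4a are not reported here. Analyses used Python 3.11.15, numpy 2.4.6, scipy 1.17.1, pandas 2.3.3, scikit-learn 1.9.0 and edgeR 4.0.16 (TMM scaling only) in R 4.3.3, and steps were tested on simulated data. Alternatives were TMM scaling, 1 CPM added, other UMI minimums, no removal of doublets, a mitochondrial limit of 10%, stricter gates, at least 2 Ccr2 UMIs, the mean over cells, thinning and, added later, a 1.5-fold call and leaving out the cell with the most UMIs.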

Additional observations from a re-analysis of the deposited data

Results flagged for a closer look

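Ptgs2 went opposite ways in different classes under the same contrast. Its log2 ratio of iIRE over control was 0.28 in neutrophils, 0.40 in Ccr2-positive myeloid cells, 1.69 in fibroblasts and 1.39 in dendritic cells, and -0.39 in collagen-rich Cdkn2a-positive cells. Each class was past 1.2-fold, with 1 library per group, and the difference between classes was not tested. The added 10 CPM hardly moved these values. The neutrophil call, however, was lost with TMM scaling and without the cell with the most UMIs in each library (0.25).

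Ptges3 was higher in osteoclast-like cells (0.62) and lower in endothelial cells (-0.83), and Pla2g4a was higher in osteoclast-like cells (0.52) and lower in C1q macrophages (-0.35). These differences between classes were not tested either. The endothelial value rests on 62 UMIs in 26 cells and 16 UMIs in 20 cells.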

How the results depend on the processing

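No paired analysis was possible because each group is 1 library. Of the 82 counts of members called under an alternative, 66 stayed within 1.5 times the first value. TMM scaling gave 0 members higher in neutrophils and 2 lower in C1q macrophages. With 1 CPM added, 2 were lower in Ccr2-positive myeloid cells and 2 in C1q macrophages. With at least 10 UMIs, 2 were higher and 1 lower in neutrophils, and 2 higher in Ccr2-positive cells. With no minimum, 4 were higher and 4 lower in neutrophils, 2 higher in Ccr2-positive cells and 1 lower in fibroblasts. In neutrophils all of these but Ptgs2 were under 50 UMIs, down to 1 and 0 UMIs of Ptges2. The stricter gate gave 2 lower in C1q macrophages. At 1.5-fold, chosen after seeing the data, 0 were higher in neutrophils, 0 higher and 0 lower in Ccr2-positive cells and 0 lower in C1q macrophages. The cause of these changes was not tested. The shares of all genes called under these alternatives are not given here, so the counts cannot be weighed against them. Of 147 log2 ratios under alternatives, 142 moved by less than their counting interval, and 0 called ratios changed sign. Under the stricter gate the log2 ratio of Ptgs2 in C1q macrophages was 0.16, against -0.09. In fibroblasts the Ptgs2 ratio was between 1.53, at 10% mitochondrial UMIs, and 2.05, under the stricter gate. Thinning lowered nearly all shares of cells with a UMI, since it leaves fewer UMIs per cell. Depth limits Hpgd, Ptger2 and most members in neutrophils, T/NK and endothelial cells.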
